A study of Mus musculus with 2 samples.

Results

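The genes described here build and assemble the axoneme, the microtubule core of the sperm tail. They are all features whose symbol begins with Dnah, Dnaic, Dnali, Dnaaf, Tekt, Rsph, Drc or Cfap followed by a digit, which gave 73 of the 32285 genes in the count tables. The Dnah family had 16 members, 1 of them the antisense transcript Dnah2os, and the Cfap family had 33. There were 8 Rsph, 5 Dnaaf, 5 Tekt, 3 Drc and 3 Dnaic or Dnali genes. They were read in 2 libraries of dissociated cells from mouse testis, 1 Prm2 +/- (heterozygous) and 1 Prm2 -/- (knockout), made with a droplet kit that counts the 3′ ends of transcripts. Prm2 encodes protamine 2, which packs DNA in the sperm head. Age, strain, the number of animals pooled and the part of Prm2 altered are not given in the sources used here. With 1 library per genotype no difference between genotypes below has a replicate check, and no test was possible. Where a pair of values is given, the heterozygous library comes first.

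The axoneme holds doublet microtubules around a central pair. Outer and inner dynein arms are motors on each doublet, built from heavy chains (Dnah), intermediate chains (Dnaic) and light chains such as Dnali1, and put together in the cytoplasm by assembly factors (Dnaaf). Tektins are filaments inside the doublet wall, radial spokes (Rsph) reach toward the central pair, the nexin-dynein regulatory complex (Drc) ties neighbouring doublets, and Cfap is a mixed group of cilia- and flagella-associated proteins. In the testis the tail grows in spermatids, and many of its genes are already transcribed in meiotic spermatocytes.

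The X-box is the binding motif of RFX transcription factors, which act at many ciliary genes, so promoters holding it are shown first. RefSeq promoter windows on GRCm38.p6, from 250 bases before to 50 after each gene start, were present for 60 of the 73 genes and searched on both strands. An X-box was found in 10 of these 60 (16.7%), against 474 of 27025 genes with a window (1.75%). It was in 2 of 3 Dnaic and Dnali genes, 1 of 4 Dnaaf, 1 of 5 Tekt, 1 of 5 Rsph, 5 of 26 Cfap, 0 of 3 Drc and 0 of 14 Dnah genes. The other genes with a match were Cfap58, Cfap99, Dnaic1 and Rsph3b. In the 5′ to 3′ windows that follow, on the strand of the gene, capitals mark the X-box:
Tekt2 (chr4:126325689-126325737, minus strand): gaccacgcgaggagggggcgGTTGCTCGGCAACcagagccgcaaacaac
Dnaic2 (chr11:114727366-114727418, plus strand): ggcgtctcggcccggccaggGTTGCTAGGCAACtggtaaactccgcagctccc
Dnaaf2 (chr12:69198430-69198466, minus strand): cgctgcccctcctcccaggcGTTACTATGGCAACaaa
Cfap45 (chr1:172521091-172521129, plus strand): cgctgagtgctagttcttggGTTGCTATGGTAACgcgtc
Cfap44 (chr16:44394752-44394798, plus strand): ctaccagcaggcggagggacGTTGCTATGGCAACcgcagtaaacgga
Cfap298, nearer match (chr16:90934884-90934938, minus strand): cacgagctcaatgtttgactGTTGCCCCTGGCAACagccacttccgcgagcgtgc
Cfap298, farther match (chr16:90935004-90935057, minus strand): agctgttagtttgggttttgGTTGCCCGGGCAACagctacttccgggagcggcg
The X-box lay within 29 bases of the start in Tekt2, 33 in Dnaic2, 17 in Dnaaf2, 19 in Cfap45 and 27 in Cfap44, and 69 and 188 bases before it in Cfap298. The shorter motif GTTGCC, which overlaps the X-box, was in 23 of 60 members (38.3%) and 14.1% of all genes. CAACTG, a MYB motif that partly overlaps it, was in 18 of 60 (30%) and 15.4% of all genes, and in 7 of 14 Dnah genes. TGACGTCA, a cAMP response element, was in 1 of 60 (1.67%) and 2.03% of all genes. A match is a description of these letters and not a measured binding site.

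The libraries held 15210 barcodes and 71364845 UMIs (unique molecular identifiers, 1 per captured molecule) in the Prm2 +/- sample, and 22885 barcodes and 123588822 UMIs in the Prm2 -/- sample. Median depth was 1882.5 and 3716 UMIs per barcode, and 88 barcodes occurred in both libraries. Both libraries hold more barcodes than the 15000 cells loaded per library per the labels. Levels are UMIs divided by all UMIs of the same cells and given as counts per 1e6 (CPM). Elongating-spermatid-like cells had 541737 and 164 UMIs of Prm2 itself, or 40042 and 10.8 CPM. Joint clustering, done without the 73 genes, gave 24 clusters, of which 15 were placed by marker genes in 7 germ cell classes and 2 in a Sertoli-like class. Cluster 2, with 2896 heterozygous and 347 knockout cells of about 958 UMIs, stayed unnamed and outside the germ classes. So did cluster 5 (733 and 1346 cells), which scored highest for round spermatid markers. Cluster 18 (90 and 643 cells), which scored highest for elongating spermatid markers, was also left out.

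The axoneme genes together were at their highest in late-spermatocyte-like cells, which carry pachytene and diplotene markers. Their summed level was 3514 CPM in spermatogonia-like and 5162 CPM in preleptotene-to-zygotene-like cells of the heterozygous library. It was 18255 CPM in late-spermatocyte-like, 14174 CPM in round-spermatid-like and 2960 CPM in elongating-spermatid-like cells. The knockout library followed the same order of classes from late spermatocytes on, at 17155, 12418 and 4094 CPM. The kit counts 3′ ends, so levels were not divided by transcript length. Whether UMIs from introns are among them is not known, so levels of long and short genes are compared as UMIs and not as secured counts of molecules.

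Axoneme gene UMIs were also present in cells that should lack them, and their source there was not tested. Sertoli-like cells, somatic cells that build no motile tail, still held 7757 and 7097 CPM of the axoneme genes, or 10.7 and 17.0 UMIs per cell. Late-spermatocyte-like cells held 133 and 108 UMIs per cell, round-spermatid-like cells 76.4 and 75.0, and elongating-spermatid-like cells 19.2 and 20.7. In late-spermatocyte-like cells 72 of the 73 genes had over 2 times the Sertoli-like UMIs per cell in the heterozygous library, and 67 did in the knockout library. In elongating-spermatid-like cells only 20 and 15 did, and in spermatogonia-like cells 22 and 4. No expression is read from the levels of single genes in spermatogonia- and preleptotene-to-zygotene-like cells.

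**Figure D1:**
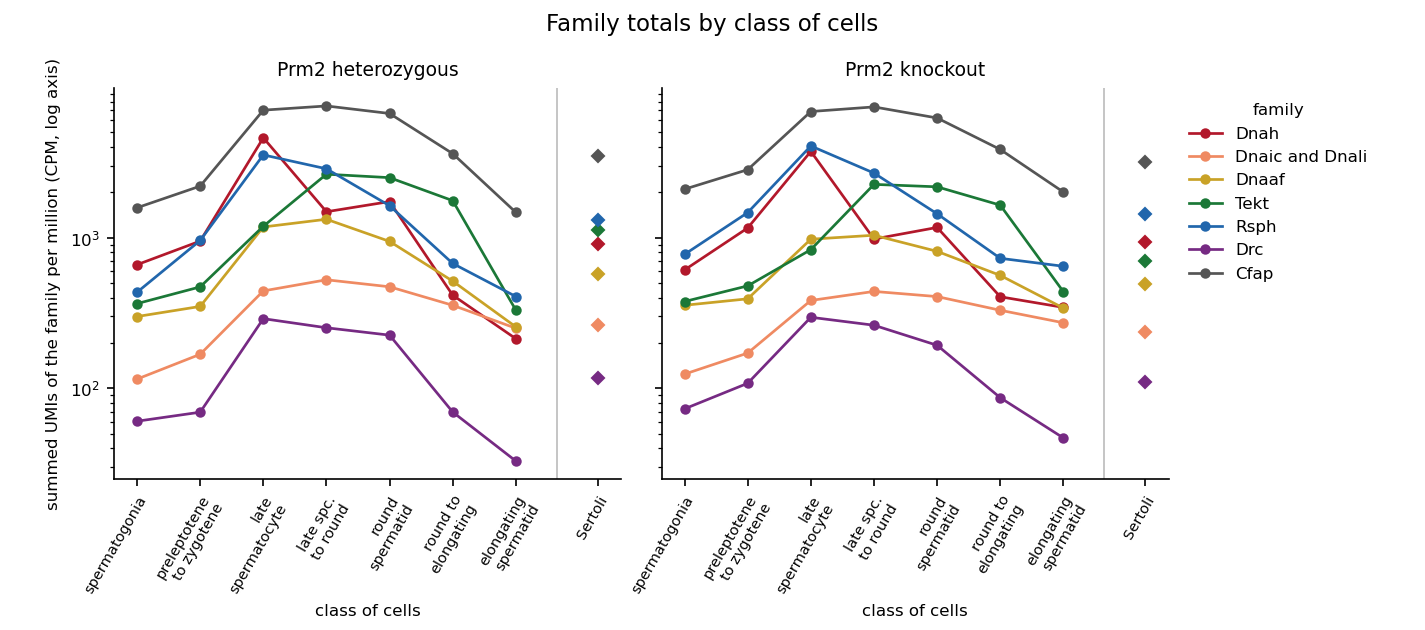
Summed CPM (log axis) of each family in 7 germ cell classes in stage order and, as diamonds, in Sertoli-like cells. Each panel holds 1 library, and no error bars are drawn. Dnah and Rsph totals were highest in late-spermatocyte-like cells, while Tekt totals were highest 1 class later in both libraries.

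The families differed in the class where their members were highest. Among genes with at least 50 CPM in some germ class and 20 UMIs, 57 in the heterozygous and 56 in the knockout library had a highest class, and it was the same class for 50 of the 56 placed in both. Of the 57, 30 were highest in late-spermatocyte-like cells, 15 in the cluster between late spermatocyte and round spermatid, 10 in round-spermatid-like cells and 2 in the cluster between round and elongating spermatid. None was highest in spermatogonia-, preleptotene-to-zygotene- or elongating-spermatid-like cells. For the knockout library the numbers were 30, 16, 7 and 3.

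Dynein heavy chains, the motor subunits, were mostly highest early. In both libraries 11 of 12 Dnah genes were highest in late-spermatocyte-like cells, and the exception was Dnah3, an inner-arm heavy chain. Dnah8, the gamma heavy chain of the sperm outer arm (ENSMUSG00000033826, chr17:30624354-30877365 on mm10, plus strand), was the most abundant. It had 2031 CPM in late-spermatocyte-like, 429 in round-spermatid-like and 88.5 in elongating-spermatid-like cells, in the heterozygous library. Dnah14 reached 490 and 590 CPM in late-spermatocyte-like cells, and 75.2 and 73.2 CPM in round-spermatid-like cells. Dnah2, an inner-arm heavy chain, went from 172 to 19.5 CPM between those classes in the heterozygous library and from 212 to 18.1 CPM in the knockout library. Dnah3 had the opposite order, with 82.3 CPM in late-spermatocyte-like and 346 CPM in round-spermatid-like cells of the heterozygous library, and 41.7 and 238 CPM in the knockout library. Dnah5, Dnah9 and Dnah11, which serve outer arms of motile cilia outside the testis, stayed under 50 CPM in every germ class. Dnah7a, Dnah7b and Dnah7c are near-identical copies whose reads the counting could split, and had 307, 287 and 424 CPM in late-spermatocyte-like cells of the heterozygous library. Their sum cannot be assigned to 1 copy with certainty.

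The smaller arm subunits and the assembly factors reached further into the spermatid stages. Dnaic1, an outer-arm intermediate chain, was highest in late-spermatocyte-like cells (146 and 121 CPM). Dnaic2, its partner in the outer arm, was highest in the cluster between late spermatocyte and round spermatid, at 103 and 75.1 CPM. Dnali1, an inner-arm light intermediate chain, was highest in round-spermatid-like cells at 359 and 323 CPM, and elongating-spermatid-like cells still had 232 and 246 CPM. Dnaaf1, the most abundant assembly factor, had 842, 1080 and 709 CPM in late-spermatocyte-like cells, the intermediate cluster and round-spermatid-like cells of the heterozygous library. Dnaaf4 and Dnaaf2 were highest in late-spermatocyte-like cells, with 133 and 89.7 CPM in the heterozygous library. Dnaaf3 was latest, with 88.0 CPM in late-spermatocyte-like and 163 CPM in round-spermatid-like cells of that library.

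No tektin was highest in late-spermatocyte-like cells. Tekt1, Tekt3 and Tekt4 were highest in the cluster between late spermatocyte and round spermatid in both libraries, at 830, 368 and 735 CPM in the heterozygous library. Tekt2 was highest in round-spermatid-like cells, at 780 and 704 CPM, against 220 and 149 CPM in late-spermatocyte-like cells. Tekt5 was the latest gene of the family. It had 31.8 CPM in late-spermatocyte-like, 42.0 in round-spermatid-like and 275 in round-to-elongating cells of the heterozygous library, and 29.3, 64.7 and 258 CPM in the knockout library. Its level in the elongating-spermatid-like class was 67.7 and 124 CPM, so the class next to its highest one held less in both libraries.

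Radial spoke genes were led by Rsph1, a spoke-head protein (ENSMUSG00000024033, chr17:31255019-31277383 on mm10, minus strand) and the most abundant of all 73 genes. Rsph1 had 2980 and 3575 CPM in late-spermatocyte-like, 1091 and 1018 CPM in round-spermatid-like and 240 and 453 CPM in elongating-spermatid-like cells. Rsph9, another spoke-head protein, was highest in the intermediate cluster at 324 and 265 CPM, and Rsph3a, a stalk protein, in late-spermatocyte-like cells at 110 and 87.4 CPM. Rsph6a, the testis relative of Rsph4a, reached 145 and 138 CPM. Rsph4a, needed for spoke heads of airway cilia, had at most 3.90 CPM in any germ class. Thus the head genes that were present differed in stage, and Rsph1 preceded Rsph9 in the order of classes.

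All 3 Drc genes of the heterozygous library were highest in late-spermatocyte-like cells, at 137 CPM for Drc1, 93.2 CPM for Drc3 and 60.2 CPM for Drc7. In the knockout library Drc3 was highest there at 133 CPM, Drc1 was highest in the intermediate cluster (124 CPM, against 114 CPM in late-spermatocyte-like cells), and Drc7 stayed below the minimum of 50 CPM. The Cfap genes were the most mixed family, with 11 of 26 highest in late-spermatocyte-like cells, 8 in the intermediate cluster, 6 in round-spermatid-like cells and 1 in the round-to-elongating cluster. Cfap36 led the family with 1073, 1303 and 1130 CPM in the first 3 of these in the heterozygous library. Cfap206, which helps dock a radial spoke and an inner-arm dynein, had 528, 714 and 626 CPM there, and Cfap298, which is needed for dynein arm assembly, 644, 719 and 438 CPM. Cfap299 had 635 CPM in late-spermatocyte-like cells. Cfap100 was late, with 15.1 CPM in late-spermatocyte-like and 120 CPM in round-spermatid-like cells of the heterozygous library. Cfap97d1 was later still, with 152 CPM in round-spermatid-like, 686 CPM in round-to-elongating and 293 CPM in elongating-spermatid-like cells. Cfap69, a gene needed for sperm tail formation, kept 254 and 221 CPM in elongating-spermatid-like cells, against 375 and 302 CPM in round-spermatid-like cells.

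**Figure D2:**
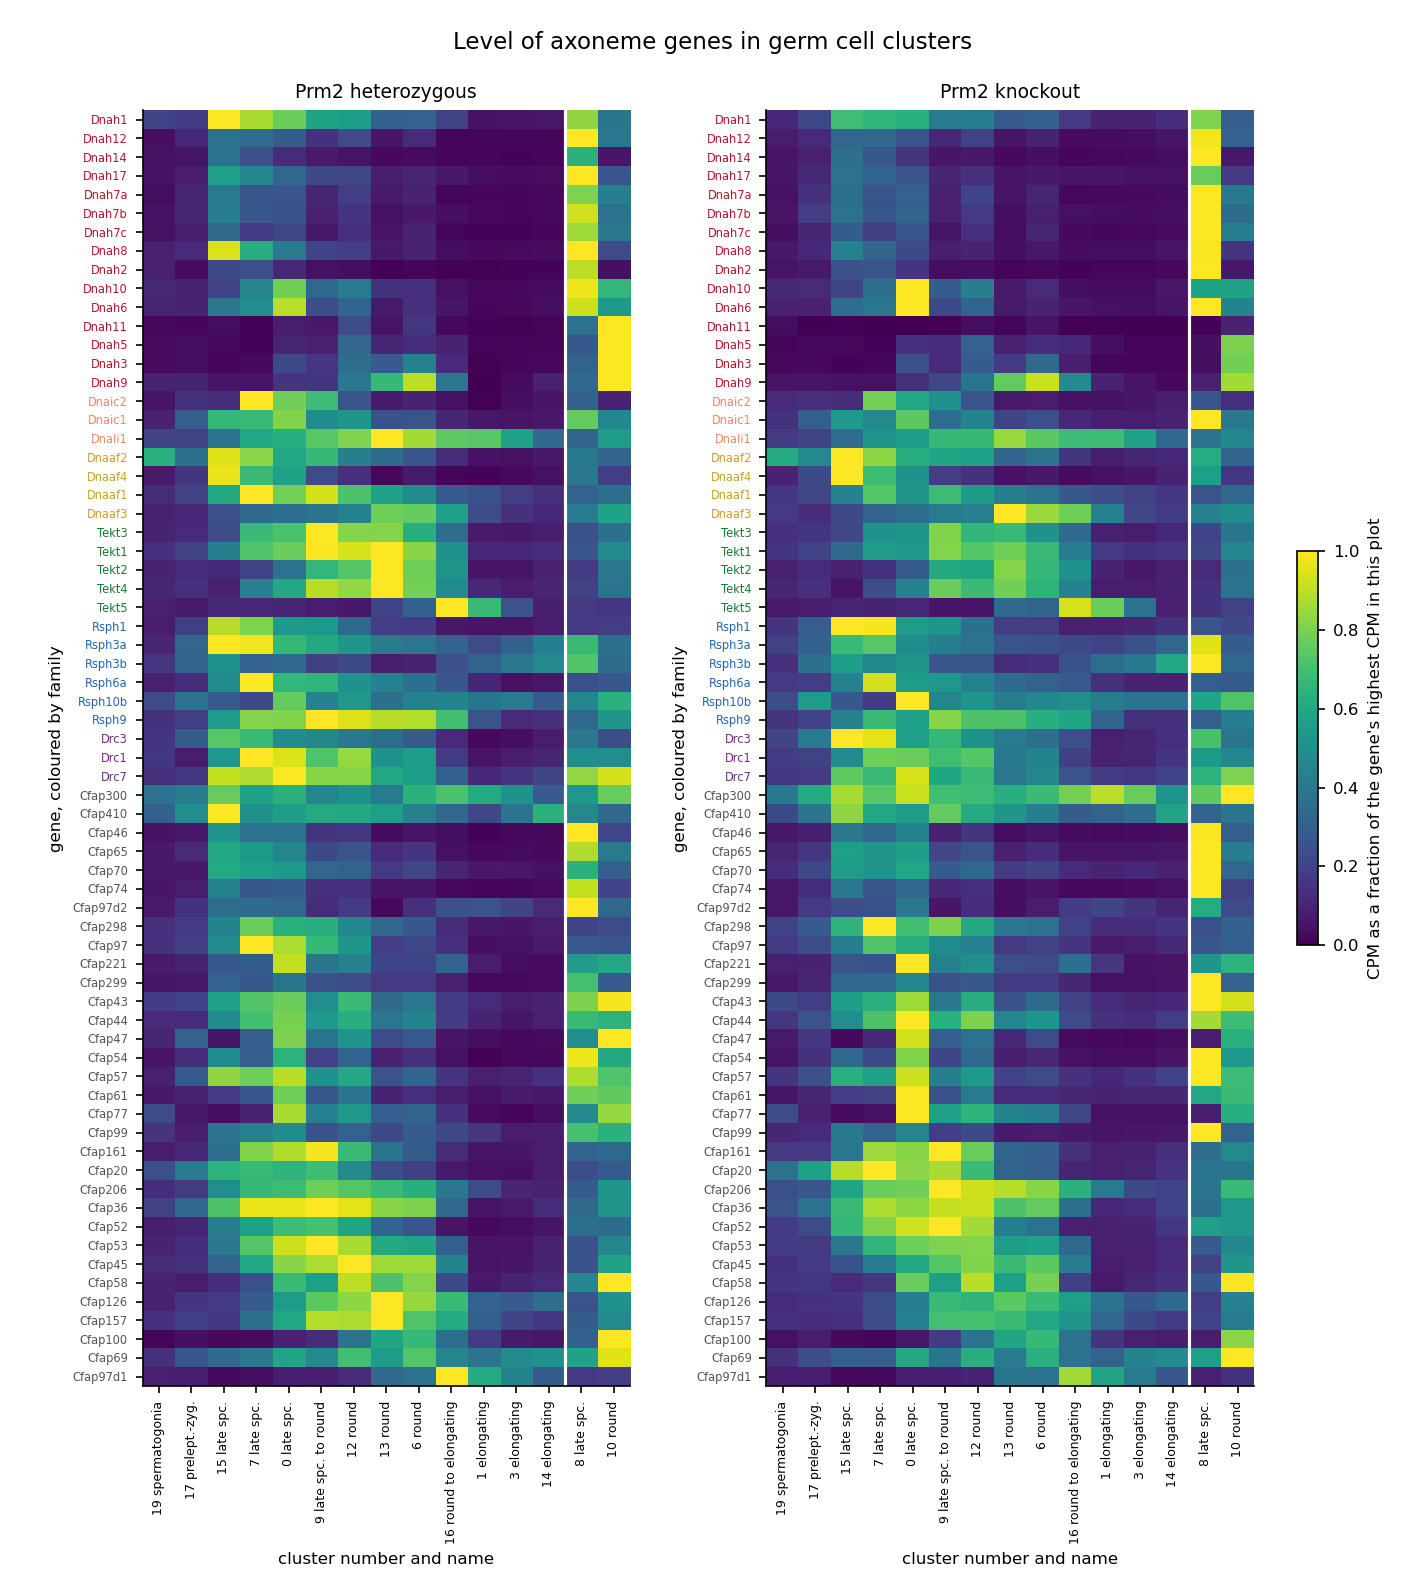
CPM of 68 axoneme genes in 15 germ cell clusters of each library, each gene divided by its highest value over both panels. The 13 clusters left of the white line are in stage order, and the 2 at its right hold many UMIs from long genes. Dnah genes were bright in cluster 15 and in cluster 8, Tekt genes in clusters 9 to 13, and Tekt5 and Cfap97d1 in cluster 16.

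Clusters split the stages more finely. Outside clusters 8 and 10, 8 of 12 Dnah genes of the heterozygous library were highest in cluster 15, the earliest of the late-spermatocyte-like clusters, and 1 was highest in cluster 6. Among tektins, 3 of 5 were highest in cluster 13, a round-spermatid-like cluster, 1 in cluster 9 and 1 in cluster 16. Of the 29 Cfap genes, 5 were highest in cluster 15, 2 in cluster 7, 9 in cluster 0, 6 in cluster 9, 6 in the 3 round-spermatid-like clusters and 1 in cluster 16. Tekt4 had 74.6 CPM in cluster 15, 364 in cluster 7, 498 in cluster 0, 735 in cluster 9 and 822 in cluster 13 of the heterozygous library. Rsph1 had the reverse order over the same clusters, at 3714, 3364, 2247, 2226 and 748 CPM.

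Dynein heavy chain genes are long, and they were highest in clusters rich in long genes. Dnah genes span a median of 222 kb in the genome, against 22.0 kb for tektins, 28.3 kb for Rsph and 41.6 kb for Cfap genes. Clusters 8 (late-spermatocyte-like) and 10 (round-spermatid-like) had over 20% of their UMIs on genes of 100 kb or more, against 10.8% in cluster 15 of the heterozygous library. Their cells were shallow, with a median of 2003 and 1762 UMIs in the heterozygous library, against 14465 in cluster 15. Shallow cells were not particular to them. Clusters 0 (late-spermatocyte-like) and 6 (round-spermatid-like) had medians of 1787 and 1521.5 UMIs in that library, but stayed under 20% on such long genes. Over all 15 germ clusters, 14 of 15 Dnah genes with 50 CPM somewhere were highest in cluster 8 or 10 in the heterozygous library, as were 14 of 31 Cfap genes and none of the 5 Tekt, 5 Rsph, 4 Dnaaf, 3 Drc and 3 Dnaic and Dnali genes. In the knockout library it was 12 of 13 Dnah, 13 of 30 Cfap, 2 of 6 Rsph and 1 of 3 Dnaic and Dnali genes. The 50 CPM minimum counted clusters 8 and 10 too, so genes that reached it only there had to be highest there. These were Dnah5, Dnah9, Dnah11, Cfap97d2 and Cfap99 in the heterozygous library, and Dnah5, Cfap99 and Rsph3b in the knockout library. The share of all genes highest in these clusters was not counted.

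The excess in these clusters went with gene span among the axoneme genes as it did among other genes. For members of 200 kb or more, the median log2 ratio of cluster 8 over the other late-spermatocyte-like clusters was 1.11 in the heterozygous and 1.48 in the knockout library. All genes of that span had medians of 1.56 and 1.56. For members of 10 to 30 kb the medians were -1.07 and -0.94, against -0.72 and -0.61 for all genes. In cluster 10 the members of 200 kb or more had medians of 1.38 and 1.60, against 1.67 and 1.79 for all genes. Across members, Spearman's rho between span and this log2 ratio was 0.60 (58 genes) and 0.68 (55 genes) in late-spermatocyte-like cells, and 0.78 (59 genes) and 0.82 (56 genes) in round-spermatid-like cells. The genes share libraries and depth, so these are descriptions. Whether introns were counted is not given in the sources used here, and its part in these values was not tested.

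**Figure D3:**
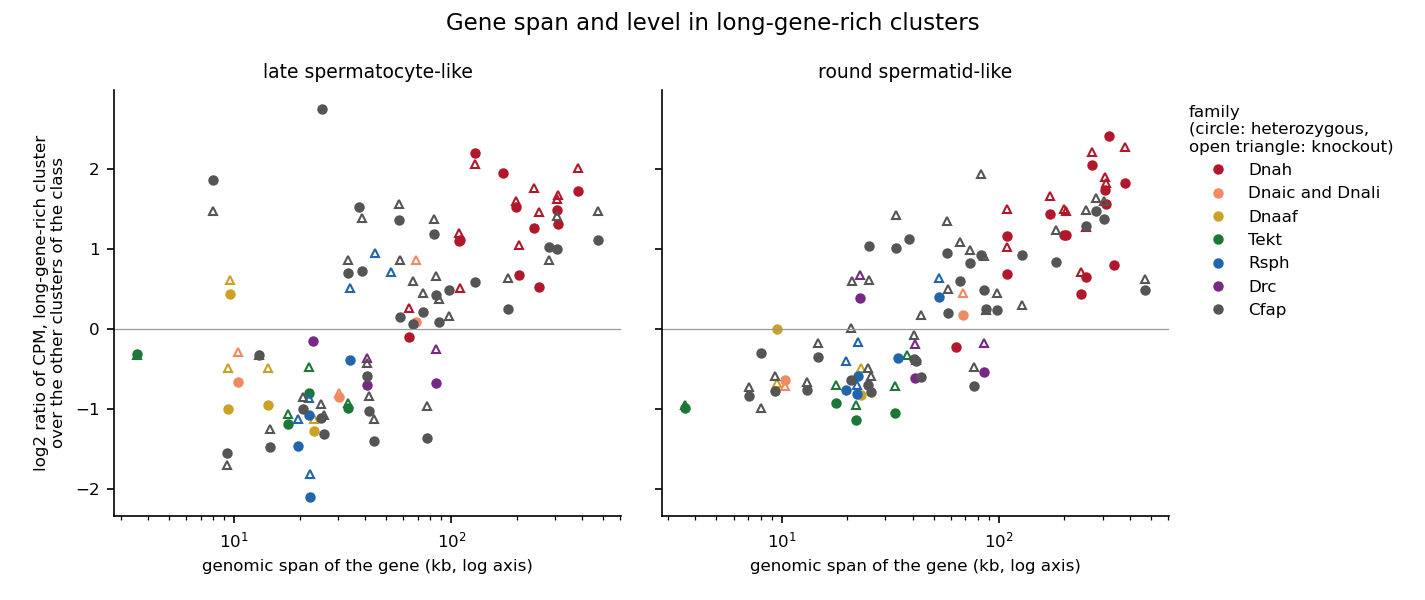
Log2 ratio of CPM in the long-gene-rich cluster over the other clusters of its class (cluster 8 at left, cluster 10 at right) against genomic span in kb (log axis) for each axoneme gene past the low-value filter, with circles for the heterozygous and open triangles for the knockout library. Dnah genes lie at the right and mostly above 0, and most genes under 30 kb lie below 0.

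The genotypes were compared by the log2 ratio of knockout over heterozygous CPM within a class, for genes with 50 CPM in at least 1 library and 100 UMIs over both. A difference of 2-fold, a log2 ratio of 1 in size, is used as a rule of size and not as a test. The intervals given are exact 95% intervals for counting error only. In a class sum, a different mix of sub-stages and a different level within cells cannot be told apart. Values of single clusters are therefore given beside some class ratios.

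In late-spermatocyte-like cells no axoneme gene differed by 2-fold. Of the 73 genes 52 passed the low-value filter, with 0 lower and 0 higher by 2-fold, where 0.842% and 0.796% of all 4274 genes compared were lower and higher. The median of the members was -0.17, against 0.02 for all genes. Within clusters 15, 7, 0 and 8 it was -0.15, -0.18, 0.05 and 0.11. The medians of all genes there were -0.02, -0.001, 0.08 and 0.13. With clusters weighted equally the median was -0.08 for members and 0.05 for all genes. By family the class medians were -0.13 for Dnah, -0.26 for Dnaic and Dnali, 0.00 for Dnaaf and -0.50 for Tekt genes. They were -0.19 for Rsph, -0.25 for Drc and -0.08 for Cfap genes. Within clusters 15, 7, 0 and 8 the Dnah medians were -0.20, -0.08, 0.19 and 0.05. The Tekt medians there were -0.34, -0.41, -0.44 and -0.39.

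Dnah8 was lower in the knockout library in 3 of the 4 clusters of this class, and level in the other. Over the class its levels were 2031 CPM (interval 2011 to 2051) and 1174 CPM (1161 to 1188), with a log2 ratio of -0.79 (-0.81 to -0.77). The difference was not even among clusters. Dnah8 had 2675 and 1249 CPM in cluster 15, 1760 and 919 CPM in cluster 7, and 1153 and 632 CPM in cluster 0. In the long-gene-rich cluster 8 the 2 libraries had 2832 and 2808 CPM, and the log2 ratio was -0.01 (-0.07 to 0.04). Cluster 8 also differed in the summed level of 15 elongating-spermatid markers, at 9336 and 4490 CPM, and the part of this in the Dnah8 values was not tested. Over the alternatives tried the ratio of Dnah8 in this class ranged from -1.08 to -0.39, and it passed 2-fold at Leiden resolutions 0.5 and 2 and with genes not scaled within library. Dnah8 overlaps Glo1 and 3 other annotated genes on the opposite strand.

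Among the other heavy chains the direction was mixed. Dnah3 had 82.3 and 41.7 CPM, with a log2 ratio of -0.98 (-1.09 to -0.87). Most of that gap lay in cluster 8, where Dnah3 had 262 and 33.4 CPM, while cluster 0 had 182 and 203 CPM. Under the alternatives tried the Dnah3 ratio in this class ranged from -0.98 to -0.29. Dnah17, the beta heavy chain of the sperm outer arm, had 226 and 166 CPM (log2 ratio -0.44). Dnah14 and Dnah2 were higher in the knockout library, with log2 ratios of 0.27 and 0.31. The Dnah7 copies had ratios of 0.03 to 0.05.

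All 4 tektins past the filter were lower in the knockout library at this stage, where 47.2% of all genes had ratios below 0. Tekt4 had 272 and 156 CPM (log2 ratio -0.80, -0.86 to -0.74), Tekt2 220 and 149 CPM (-0.56), Tekt1 490 and 363 CPM (-0.43) and Tekt3 176 and 134 CPM (-0.39). Sertoli-like cells had 289 and 162 CPM of Tekt4 in the 2 libraries, so a difference of like direction and size stood in cells that should lack the gene. Summed markers of other cells also differed in this class, at 2730 and 1848 CPM for 15 elongating-spermatid markers, 2940 and 2337 CPM for 15 late round spermatid markers and 49.6 and 186 CPM for 15 Sertoli markers, with none of these markers at 0. The part of these differences in the tektin values was not tested. The largest positive ratios belonged to Drc3 (0.51), Cfap52 (0.51) and Cfap20 (0.49), of which the latter 2 encode proteins of the doublet's inner junction, and to Cfap298 (0.41). Cfap45, a protein inside the doublet wall, and Cfap58 had ratios of -0.55 and -0.46.

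**Figure D4:**
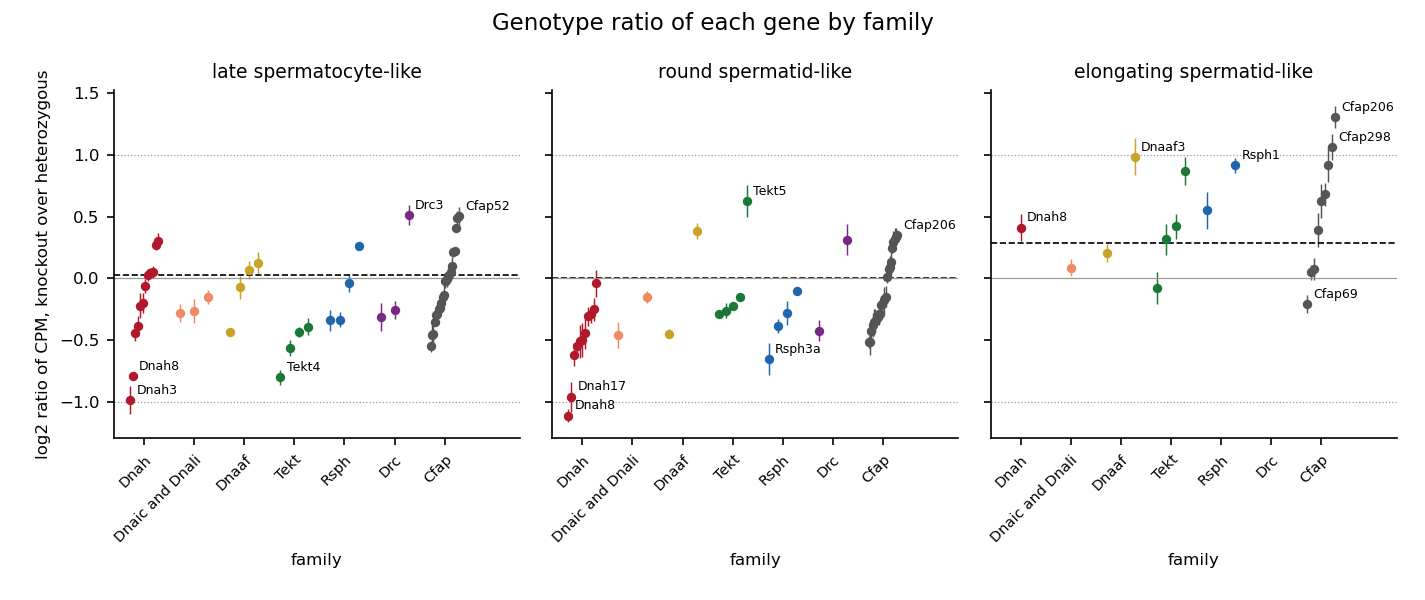
Log2 ratio of CPM, knockout over heterozygous, for each axoneme gene past the low-value filter in 3 classes, grouped by family, with exact 95% intervals for counting error. The dashed line is the median of all genes in the class and dotted lines mark 2-fold. Tekt genes lie below 0 in late-spermatocyte-like cells, all 11 Dnah genes lie below 0 in round-spermatid-like cells (49.5% of all genes did) though not within each of its clusters, and 17 of 19 genes lie above 0 in elongating-spermatid-like cells (71.9% of all genes did), where TMM scaling leaves 8 of 20 above 0.

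In round-spermatid-like cells 50 genes passed, and 1 was lower by 2-fold and 0 higher, where 0.755% and 0.957% of all 3971 genes were. Their median was -0.28, against 0.01 for all genes. When clusters or cells were weighted equally instead of by UMIs, the median was -0.11 or -0.13 and no gene was lower by 2-fold. Over the class all 11 Dnah genes past the filter had ratios below 0, with a median of -0.50, where 49.5% of all genes were below 0. This did not hold within its clusters. The Dnah genes below 0 numbered 6 of 11 in cluster 12 (median -0.02), 3 of 7 in cluster 6 (median 0.08), 4 of 4 in cluster 13 (median -0.59) and 12 of 14 in cluster 10 (median -0.28). They numbered 8 of 11 with clusters weighted equally and 9 of 10 with cells weighted equally. Over the class the medians were -0.22 for Tekt, -0.33 for Rsph and -0.19 for Cfap genes. Within clusters 12, 10, 13 and 6 the Cfap medians were 0.02, 0.01, -0.07 and -0.05. In the same order the Rsph medians were -0.30, 0.13, -0.32 and -0.21, and the Tekt medians -0.31, -0.04, -0.30 and -0.28. By span the medians of members were 0.25 under 10 kb, -0.22 at 10 to 30 kb and -0.26 at 30 to 100 kb. They were -0.52 for the 6 members of 100 to 200 kb and -0.29 at 200 kb or more. All genes in these bins had medians of 0.02, 0.05, 0.01, -0.06 and -0.08, in the same order.

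Dnah8 was the gene lower by 2-fold, at 429 CPM (419 to 439) and 199 CPM (194 to 205, log2 ratio -1.11, -1.16 to -1.05). Its levels were 527 and 287 CPM in cluster 12, 189 and 101 CPM in cluster 13, 286 and 181 CPM in cluster 6, and 645 and 435 CPM in cluster 10. None of these 4 clusters reached 2-fold by itself. The mix of clusters differed between the libraries. Cluster 13, with the lowest Dnah8 levels of the 4, had 281 heterozygous and 1164 knockout cells, with medians of 9139 and 7076.5 UMIs. Cluster 12 had 1344 and 1419 cells. The part of this mix in the class ratios of Dnah8 and the other axoneme genes was not tested. In cluster 9, which links spermatocytes and round spermatids, it had 573 and 236 CPM, with a log2 ratio of -1.28. Dnah17 had 77.1 and 39.8 CPM in round-spermatid-like cells (log2 ratio -0.95), and 97.7 and 48.6 CPM in cluster 9. Among members past the 50 CPM filter these 2 heavy chains of the sperm outer arm had the lowest ratios of the class. Rsph3a (-0.65), Dnah12 (-0.62), Dnah3 (-0.54) and Cfap97 (-0.51) followed.

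In the intermediate cluster 9, 2 of 51 genes were lower by 2-fold and 0 higher, where 0.981% and 1.33% of all 3770 genes were. These 2 were Dnah8 and Dnah17, and the median was -0.20 for members and 0.03 for all genes.

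Tekt5 had the highest ratio of the members in round-spermatid-like cells, at 42.0 and 64.7 CPM (0.62). The next were Dnaaf3 (163 and 213 CPM, 0.38), Cfap206 (626 and 799 CPM, 0.35), Cfap97d1 (0.34), Cfap52 (0.32) and Drc3 (0.31). Tekt5 and Cfap97d1 were highest in the next stage, the round-to-elongating cluster, in both libraries, and Dnaaf3 was highest there in the knockout library alone. In that cluster Tekt5 had 275 and 258 CPM and Cfap97d1 686 and 591 CPM, with ratios of -0.09 and -0.21. Dnaaf3 had 160 and 218 CPM there, with a ratio of 0.44. In the round-to-elongating cluster 26 genes passed, with 0 lower and 0 higher by 2-fold, where 0.855% and 1.77% of all 3391 genes were.

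A minimum of 10 CPM instead of 50 added low genes. With it 1 member, Cfap100 (15.1 and 7.18 CPM), was lower by 2-fold in late-spermatocyte-like cells, where 2.02% of 9229 genes were, and 11 members were higher in elongating-spermatid-like cells, where 23.2% of 6330 genes were. In addition 3 members were lower by 2-fold in round-spermatid-like cells, where 1.3% of 8739 genes were. They were Dnah8, Cfap99 (33.0 and 14.3 CPM) and Dnah11 (24.2 and 3.25 CPM), named here after their values were seen. Dnah11, an outer-arm heavy chain of airway cilia (ENSMUSG00000018581, chr12:117877982-118199043 on mm10, minus strand), had the largest difference of the 73 genes in this class, with 385 and 83 UMIs and a log2 ratio of -2.90 (-3.26 to -2.55). In cluster 10 it had 123 UMIs in 519 heterozygous cells and 17 UMIs in 729 knockout cells, or 95.9 and 9.03 CPM. It was also lower in clusters 12 (22.5 and 3.40 CPM) and 6 (15.6 and 5.04 CPM), while Sertoli-like cells had 4.50 and 5.70 CPM.

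Across the 10 clusters from late spermatocyte to the round-to-elongating cluster, 21 genes passed the filter in each. Of these, 8 had log2 ratios below 0 in all 10 clusters, namely Dnah8, Dnaaf1, Tekt1, Tekt2, Tekt4, Rsph9, Cfap45 and Cfap126. Cfap206 and Cfap298 had ratios above 0 in all 10. That is 38.1% below and 9.52% above throughout, against 21% and 23.2% of the 1651 genes of any kind that passed in each cluster. The clusters share 2 libraries and are not replicates. Dnah8 ranged from -1.28 to -0.01, Tekt4 from -0.87 to -0.04, Cfap206 from 0.19 to 0.67 and Cfap298 from 0.13 to 0.69.

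**Figure D5:**
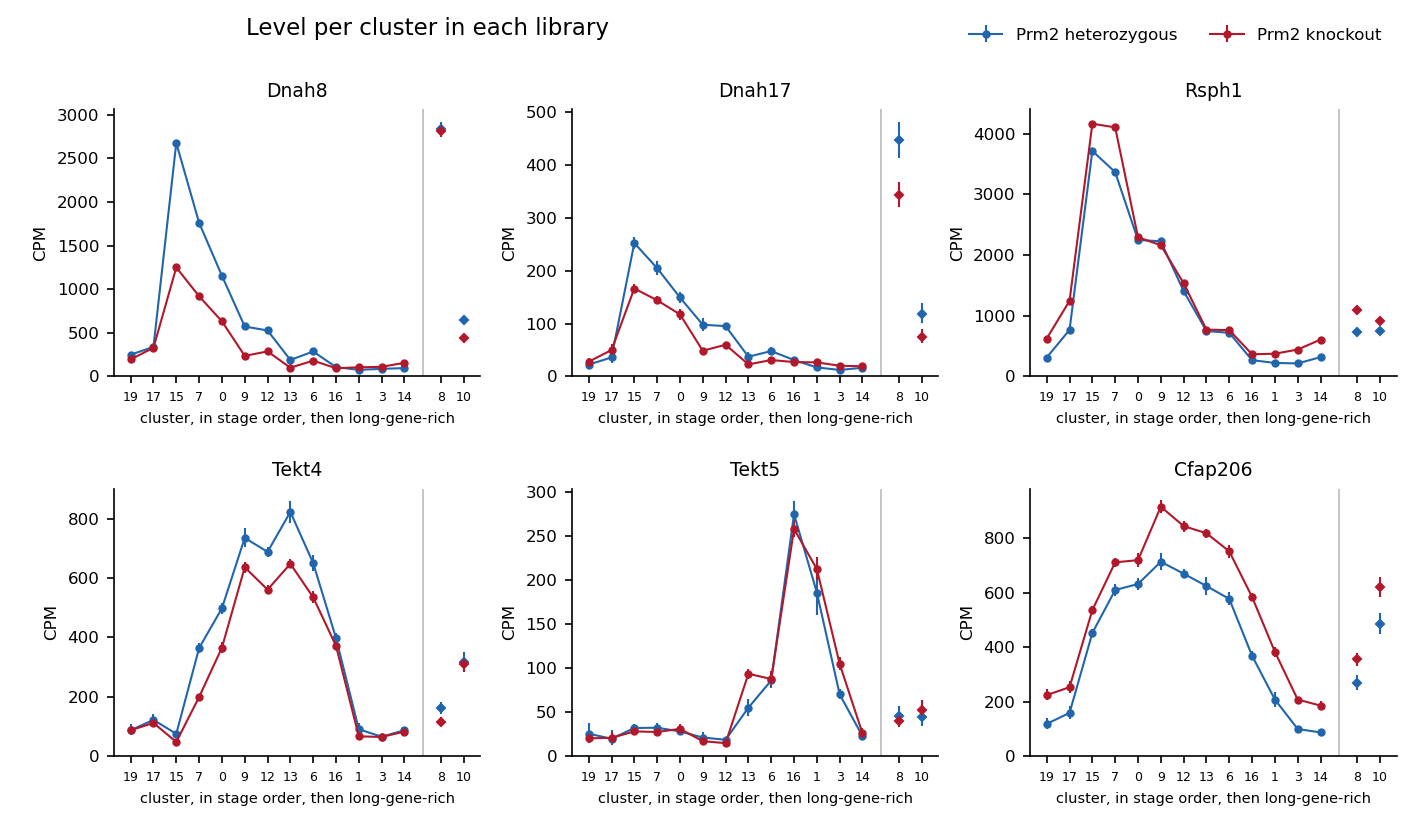
CPM of 6 genes in each germ cell cluster (13 in stage order, then the long-gene-rich clusters 8 and 10 as diamonds) in the heterozygous (blue) and knockout (red) library, with exact 95% Poisson intervals for counting error. Dnah8 and Dnah17 were lower in the knockout library from cluster 15 to cluster 6, Dnah8 was level in cluster 8, and Cfap206 was higher in the knockout library in every cluster shown.

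In elongating-spermatid-like cells most axoneme genes were higher in the knockout library, as were genes in general, but with TMM scaling their median was below 0. Only 19 of 73 passed the filter. Of these 0 were lower and 2 higher by 2-fold, where 1.02% and 12.4% of all 2450 genes were. The median was 0.42 for members and 0.29 for all genes. Within clusters 1, 3 and 14 it was 0.52, 0.47 and 0.28 for members and 0.15, 0.22 and 0.25 for all genes. Cluster 1, with the highest summed axoneme level of these clusters (3423 and 4406 CPM), had 116 heterozygous and 766 knockout cells. Cluster 3 had 1275 and 1443 cells, and cluster 14 had 696 and 791. The part of this mix in the class ratios was not tested. Of the members 17 of 19 had ratios above 0, as did 71.9% of all genes. TMM scaling moved ratios in this class by -0.60, and then the median was -0.19 for members and -0.39 for all genes, with 12 of 20 members and 73.7% of all genes below 0. With it 1 member, Rsph3a, was lower and 0 higher by 2-fold, where 168 and 43 of all 2366 genes were. Late-spermatocyte-like and round-spermatid-like ratios moved by 0.07 and -0.02.

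The 2 genes past 2-fold were Cfap206, at 105 CPM (99.3 to 110) and 259 CPM (251 to 267), and Cfap298, at 73.6 CPM (69.1 to 78.3) and 154 CPM (148 to 160). Their log2 ratios were 1.31 and 1.06, and ranged from 0.70 to 1.34 and from 0.46 to 1.06 over the alternatives. Dnaaf3 (0.98), Cfap299 (0.92), Rsph1 (240 and 453 CPM, 0.92) and Tekt5 (0.87) followed. Dnah8, the 1 Dnah gene past the filter, had a ratio of 0.41 here, opposite in direction to late-spermatocyte-like and round-spermatid-like cells. With TMM scaling its ratio was -0.19. The lowest ratios were those of Cfap69 (254 and 221 CPM, -0.21), Tekt4 (72.1 and 68.3 CPM, -0.08), Cfap97d1 (0.05), Cfap126 (0.08), Dnali1 (0.09) and Dnaaf1 (0.21). Cfap69, Cfap97d1 and Dnali1 are thus the genes with over 200 CPM left at this stage in the heterozygous library besides Rsph1 and Dnaaf1. The summed level of 15 pachytene markers in these cells was 3127 and 5153 CPM, and of 15 elongating-spermatid markers 25562 and 21240 CPM. The 15 Sertoli markers stood at 43.7 CPM, with 4 at 0, and 258 CPM, with 1 at 0. Only 20 and 15 of the 73 genes had over 2 times the Sertoli-like UMIs per cell in this class. A CPM above that of Sertoli-like cells was seen for 8 and 15 genes. The part of these marker differences, and of axoneme gene UMIs also found in Sertoli-like cells, in the ratios was not tested.

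Spermatogonia-like cells had 24 and preleptotene-to-zygotene-like cells 34 genes past the filter. In the first, 0 were lower and 1 higher by 2-fold, where 0.532% and 2.46% of all 5071 genes were, and the gene was Rsph1 (312 and 625 CPM). In the second, 0 were lower and 2 higher, Cfap70 (18.8 and 60.5 CPM) and Cfap52 (22.9 and 49.9 CPM), where 0.858% and 2.08% of all 5011 genes were. The medians were 0.18 and 0.32, against 0.04 and 0.03 for all genes, in classes where most of the 73 genes had under 2 times the Sertoli-like UMIs per cell.

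Other axoneme and ciliary genes outside the 8 name stems were read beside them from a list of 68 genes. In late-spermatocyte-like cells 61 passed, with 0 past 2-fold in either direction and a median of -0.13. In round-spermatid-like cells 58 passed, again with 0, and a median of -0.11. The lowest there were Zmynd10 (80.4 and 45.1 CPM, -0.84), a dynein assembly factor, Ccdc39 (-0.57), a ruler of the axonemal repeat, and Hydin (-0.56), a central-pair protein. The highest were Saxo1 (0.61), a microtubule stabilizer, Tctex1d2 (0.50), a dynein light chain, and Nme7 (0.50). In elongating-spermatid-like cells 29 passed, 0 lower and 5 higher by 2-fold, where 1.02% and 12.4% of all genes were, with a median of 0.50 against 0.29 for all genes. With TMM scaling 25 passed, with 1 lower (Nme8) and 0 higher by 2-fold, where 168 and 43 of all 2366 genes were. The median of the 25 was then -0.14, against -0.39 for all genes.

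Of 10 transcription factors of ciliary or spermatid genes, 8 passed in late-spermatocyte-like cells with none past 2-fold. Rfx2, which binds the X-box in spermatids, had 99.5 and 139 CPM there (0.48) and 53.0 and 78.4 CPM in round-spermatid-like cells (0.57). Rfx3 had ratios of -0.12 and 0.04 in those classes, and Rfx4 0.09 and -0.22. Tbpl1, a TBP-like factor of spermatids, had 561 and 889 CPM (0.67) and 502 and 692 CPM (0.46). Crem, an activator of spermatid genes, had 0.00 and 0.17, Sox5 -0.60 and 0.02, and Sox30 -0.18 and 0.27. Mybl1, a regulator of meiotic genes, had -0.18 in late-spermatocyte-like cells, and Foxj1, a regulator of motile cilia, 0.00 in round-spermatid-like cells. In elongating-spermatid-like cells 5 passed, and Tbpl1 (1.35) and Rfx2 (1.00) were higher by 2-fold, where 12.4% of all genes were. With TMM scaling neither was, at 0.75 and 0.40. Genes with an X-box differed among themselves in late-spermatocyte-like cells, from -0.56 for Tekt2 to 0.41 for Cfap298.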

How the data were processed

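Whole-testis cells were run on the 10x Genomics 3′ kit, with 15000 cells loaded per library per the labels. The deposited files hold UMI counts per gene and barcode, and the authors' program was Cell Ranger; its version, per the file headers, was 7.1.0. Seurat 4.1.0 and mm10 are also named in the submitters' processing notes. Cell Ranger of this major version counts intronic reads by default, but whether that default was kept is not given in the sources used here. Columns of other samples numbered 0.

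Barcodes needed 500 UMIs, 250 genes and no more than 20% mitochondrial UMIs (15038 and 22503 passed). Doublets called by Scrublet in scanpy 1.11.5 were removed (462, 3.07%, in the heterozygous and 3540, 15.7%, in the knockout library). This left 14576 and 18963 barcodes, which are called cells here. The knockout library thus kept more barcodes than the 15000 cells loaded. If that number is exact, not all of them can be single whole cells, and UMIs per cell are UMIs per barcode. Both libraries were clustered together (2000 variable genes, scaled within library, 30 components, 20 neighbours, Leiden resolution 1). Variable genes excluded the 73 genes, Xist, mitochondrial and Y-linked genes and those of protamines and transition proteins. Clusters were named from marker sets by their mean z-score, which had to reach 0.5 and lead the next set by 0.25 with 3 markers at 10 CPM, except that clusters led by a pair of adjacent stages took both names. The scoring rule was set after the data were seen, and a late round spermatid set that overlapped the elongating set was left out of naming, so elongating cluster 14 has Car2, a late round marker, among its leading genes.

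UMIs were summed per class and library and scaled to CPM, with exact Poisson intervals for levels and exact conditional binomial intervals for ratios (95%). The scripts were tested on simulated data. Positions come from GENCODE M21 (32235 of 32285 IDs found), and 6 members overlap another gene on the same strand (Drc1, Cfap299, Rsph10b, Dnaaf3, Cfap97 and Cfap43). The genes named are the 4 highest of each family, the 6 highest and 6 lowest ratios in late-spermatocyte-, round- and elongating-spermatid-like cells, the Dnah7 copies, 3 highest and 3 lowest of the other axoneme genes in round-spermatid-like cells, and the regulators past the filter. The members and lists were chosen with earlier results of these data known. The 11 other settings tried covered cell filters, doublets, clustering, scaling with TMM (edgeR 4.0.16), weights and the CPM minimum. Leaving out clusters 8 and 10 was added after the data were seen. Alternative clusterings gave no round-to-elongating class.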

Additional observations from a re-analysis of the deposited data

How the results depend on the processing

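No paired analysis was possible because each genotype has 1 library. In elongating-spermatid-like cells the genes higher by 2-fold numbered 2, but 0 with TMM, 1 with clusters weighted equally, with genes not scaled within library or with a minimum of 200 CPM, and 11 with a minimum of 10 CPM (23.2% of all genes were higher then). Of all genes, 43 of 2366 were higher with TMM and 174 of 2449 with clusters weighted equally. The numbers were 190 of 2547 with genes not scaled within library and 66 of 905 with a minimum of 200 CPM. With TMM 1 member (Rsph3a) was lower in this class instead of 0, where 168 of all 2366 genes were lower. The median of the members was then -0.19 instead of 0.42. In late-spermatocyte-like cells 1 member (Dnah8) instead of 0 was lower by 2-fold at Leiden resolutions 0.5 and 2 and with genes not scaled within library. Of all genes, 26 of 4158, 26 of 4083 and 18 of 4146 were lower in these settings. With a minimum of 10 CPM 1 member (Cfap100) was lower, where 2.02% of all genes were. In round-spermatid-like cells the 1 lower gene became 0 with clusters or cells weighted equally, where the median was -0.11 or -0.13 instead of -0.28, and 3 with a minimum of 10 CPM.

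Genes highest in elongating-spermatid-like cells numbered 2 in each library, instead of 0, with at least 1000 UMIs per barcode, at most 10% mitochondrial UMIs, doublets kept, genes not scaled within library or resolution 0.5. At resolution 2 there was 1 in the heterozygous library and 2 in the knockout library. These clusterings gave no round-to-elongating class, which removes it as a choice. Genes highest in late-spermatocyte-like cells numbered 12 (heterozygous) and 13 (knockout) instead of 30 with a minimum of 200 CPM, which leaves fewer genes, and 14 (knockout) at resolution 2. Genes highest in round-spermatid-like cells numbered 16 in each library at resolution 0.5, 11 (knockout) at resolution 2, 6 and 4 with cells weighted equally, and 6 (heterozygous) with a minimum of 200 CPM, instead of 10 and 7. The cause of the other differences was not tested. The other 143 comparisons of these counts and medians stayed within 1.5 times the count or within the spread set for them, and leaving out clusters 8 and 10 changed none of them by more.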
